A study of Drosophila melanogaster with 2 samples.

Results

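The regions described here are 2158 stretches of bound chromatin in Drosophila melanogaster embryos whose summit lay within 1 kb of the transcription start sites (TSSs) of exactly 1 protein-coding gene. They were chosen by position alone from the authors' reproducible peak list, whose 5744 peaks merged into 5206 regions wherever they shared at least 1 bp. All 5744 rows of that list are identical to the 5744 rows of highest signal in the pooled list, so membership of it follows a signal threshold in the pooled data. The 2158 regions were 41.5% of all regions and 64.0% (62.4 to 65.6%) of the 3370 with a summit within 1 kb of any TSS. Of the other regions, 1212 lay near several genes and 1836 lay away from promoters. Bracketed ranges are 95% Wilson intervals and cover counting error only.

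The series is a chromatin immunoprecipitation and sequencing (ChIP-seq) experiment with 1 group of 2 biological replicates, numbered 1 and 3, and no other condition was analysed here. The material was whole embryos aged 0 to 24 h, with male and female embryos pooled, from a line that stably carries an insertion expressing E(spl)mβ-HLH with GFP at its C terminus, and all cells of all these stages were mixed. The antibody field and the assay title describe an immunoprecipitation, but the description field of both samples speaks of an input control, and the values below stand under that conflict. Fragments were 200 to 800 bp long. Because peak lists carry no numbers of reads, the depth behind each value is unknown.

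Notch signalling switches on the gene of E(spl)mβ-HLH, a repressor with a basic helix-loop-helix domain that belongs to the Hairy/E(spl) family and recruits the corepressor Groucho. Proteins of this family bind short DNA words such as the canonical E-box CACGTG, the class C box CACGCG and the N-box CACNAG. Promoters of broadly used fly genes often carry other words close to the TSS, among them that of the DNA replication-related element factor DREF and that of the motif 1 binding protein M1BP, whereas GAGA factor opens chromatin at many regulated genes.

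The sequences below show the words upstream of the TSS of strong regions. Each stretch was placed around the word or next to the TSS, and the summit of the region can lie outside it. Each is read 5′ to 3′ on the strand of its gene, from RefSeq's copy of the dm6 assembly, and capitals mark the word. The strongest region of all lay at the gene of the tagged protein itself. Its stretch from 176 to 27 bp upstream of the TSS held no CACGTG or CACGCG and 1 form of the N-box:
E(spl)mbeta-HLH, chr3R:26006050-26006199, minus strand: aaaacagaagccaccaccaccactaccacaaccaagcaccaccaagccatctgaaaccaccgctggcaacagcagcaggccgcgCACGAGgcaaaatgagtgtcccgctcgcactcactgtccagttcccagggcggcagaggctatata

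The DREF word TATCGATA lay 41 to 34 bp upstream of the TSS of the translation elongation factor gene eEF1gamma and 77 to 70 bp upstream of that of the ribosomal protein gene RpS10b. On the arms from which sequences were drawn these were the strongest regions with the word upstream of the TSS, with signals of 1701 and 1293, and the pairs for the other words shown were chosen likewise. The signal is the authors' own strength of a peak within its list, in no stated unit:
eEF1gamma, chr3R:29220072-29220171, plus strand: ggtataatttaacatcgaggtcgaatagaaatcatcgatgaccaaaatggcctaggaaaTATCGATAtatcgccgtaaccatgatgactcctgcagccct
RpS10b, chrX:19597908-19598007, plus strand: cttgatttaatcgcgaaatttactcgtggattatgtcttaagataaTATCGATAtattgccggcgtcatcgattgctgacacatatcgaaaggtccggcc

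The M1BP word GGTCACACT, shown for RpL27 as its reverse complement, lay 117 to 109 bp upstream of the TSS of that ribosomal protein gene. In Mer, the gene of the tumour suppressor Merlin, it lay 11 to 3 bp upstream. The signals of these regions were 846.5 and 564.4:
RpL27, chr3R:25685115-25685214, minus strand: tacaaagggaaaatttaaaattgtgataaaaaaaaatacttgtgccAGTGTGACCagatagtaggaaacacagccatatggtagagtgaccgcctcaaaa
Mer, chrX:19693501-19693600, minus strand: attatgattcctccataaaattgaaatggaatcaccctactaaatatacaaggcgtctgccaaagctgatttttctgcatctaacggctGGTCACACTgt

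The GAGA factor word GAGAGAG lay 65 to 59 bp upstream of the TSS of the lactate dehydrogenase gene Ldh and, as its reverse complement, 131 to 125 bp upstream of that of CG1907. Their regions had signals of 947.2 and 1369:
Ldh, chr3L:6262707-6262806, minus strand: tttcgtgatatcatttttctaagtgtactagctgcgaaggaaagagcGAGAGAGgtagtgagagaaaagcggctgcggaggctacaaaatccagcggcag
CG1907, chr3R:29618887-29618986, plus strand: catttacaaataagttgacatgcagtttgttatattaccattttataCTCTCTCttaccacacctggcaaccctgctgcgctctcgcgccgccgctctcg

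The canonical E-box lay 156 to 151 bp upstream of the TSS of fok and 44 to 39 bp upstream of that of the ribosomal protein gene RpL24, with signals of 1491 and 1460:
fok, chr2L:20085174-20085273, minus strand: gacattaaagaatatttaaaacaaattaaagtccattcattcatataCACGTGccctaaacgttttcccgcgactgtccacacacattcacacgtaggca
RpL24, chr2L:13395132-13395231, minus strand: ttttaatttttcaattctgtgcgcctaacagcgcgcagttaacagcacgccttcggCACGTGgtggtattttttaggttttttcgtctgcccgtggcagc

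The class C box lay 150 to 145 bp upstream of the TSS of the ribosomal protein gene RpL23A and 191 to 186 bp upstream of a TSS of bun, with signals of 1454 and 1019:
RpL23A, chr3L:1668752-1668851, minus strand: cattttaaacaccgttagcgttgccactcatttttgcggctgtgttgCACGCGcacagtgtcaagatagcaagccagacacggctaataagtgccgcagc
bun, chr2L:12461395-12461494, minus strand: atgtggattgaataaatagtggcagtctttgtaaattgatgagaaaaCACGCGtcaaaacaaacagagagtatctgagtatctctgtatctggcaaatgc

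The summits lay upstream of the TSS more often than downstream of it. Upstream summits numbered 1357, or 62.9% (60.8 to 64.9%), downstream summits 794, and 7 summits fell on the TSS itself. The median summit was 46.5 bp upstream, and 64.9% (62.9 to 66.9%) lay between 300 bp upstream and 100 bp downstream. The summits of the replicates' own peaks gave 62.7% upstream in replicate 1 (2146 regions with a peak) and 62.4% in replicate 3 (2141 regions). At the 777 regions of genes with 1 TSS, where the choice of TSS cannot matter, 63.1% (59.6 to 66.4%) were upstream. With the most upstream TSS taken as the only one of each gene, 52.5% were upstream and the median summit was 8 bp upstream.

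Density was highest next to the TSS, with 477 summits in the 100 bp upstream of it and 419 in the 100 bp downstream. It then fell unequally on the 2 sides. Between 100 and 300 bp there were 505 summits upstream, or 252.5 per 100 bp, and 131 downstream, or 65.5 per 100 bp. Beyond 300 bp downstream the density was 35.8 per 100 bp, and beyond 500 bp upstream it was 37.

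The strongest regions stood farther upstream than the weakest. Of the 215 strongest regions, with signals from 772.0 to 5401, 80.9% (75.2 to 85.6%) had an upstream summit, and their median was 178 bp upstream. Of the 215 weakest, with signals from 183.7 to 201.3, 55.8% (49.1 to 62.3%) were upstream, and their median was 14 bp upstream. Regions with a summit 100 to 300 bp upstream had a median signal of 379.9, against 282.6 in the 100 bp upstream of the TSS and 280.5 in the 100 bp downstream. The same 3 positions had medians of 217.8, 156.5 and 153.0 in the replicate 1 list and of 168.3, 133.9 and 131.4 in the replicate 3 list, so both lists put the 100 to 300 bp interval highest. Of the regions in that interval 20.4% were among the 215 strongest, against 4.82% and 3.34% in the intervals on either side of the TSS. At genes with 1 TSS the 3 medians were 415.0, 282.6 and 274.6. Over all regions, medians farther upstream were also above those next to the TSS. They were 345.2 from 300 to 500 bp and 329.4 from 500 to 1000 bp upstream. In replicate 1 these were 204.4 and 208.0, and in replicate 3 they were 139.4 and 142.1.

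**Figure D1:**
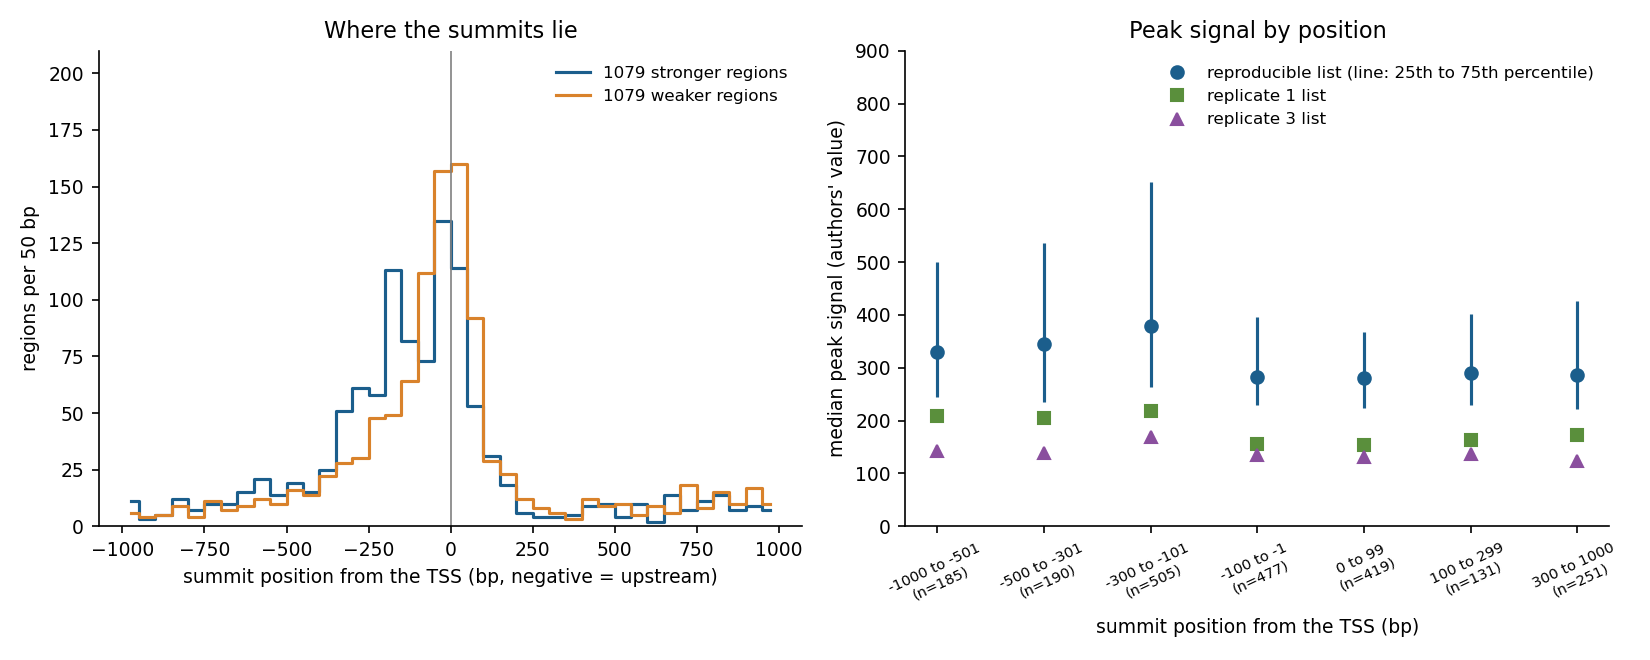
Left, regions per 50 bp against the summit's position from the TSS, for the 1079 stronger and the 1079 weaker regions. Right, the median signal of each position interval in the reproducible list (circles, with lines from the 25th to the 75th percentile) and in the lists of replicate 1 (squares) and replicate 3 (triangles). The stronger regions form a shoulder upstream of the TSS, and the interval from 300 to 101 bp upstream has the highest median in all 3 lists.

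E(spl)mbeta-HLH had the highest signal of all 5206 regions. Its region (chr3R:26005796-26007488, 1693 bp, merged from 4 peaks) had a signal of 5401 in the reproducible list, 3208 in the replicate 1 list, where it ranked 1, and 2222 in the replicate 3 list, where it ranked 3. The summit lay 101 bp upstream of the TSS, outside any gene, and the next gene's TSS was 4769 bp away. The line also carries the insertion that expresses the tagged protein. Whether reads from that insertion add to this region is not known and was not tested.

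CG14100 came next, with a signal of 3610 at a summit 94 bp upstream, 2072 in replicate 1 and 1541 in replicate 3. Gapdh2, one of the genes of the glycolytic enzyme glyceraldehyde-3-phosphate dehydrogenase, had a signal of 3326 at 147 bp upstream, with 1746 in replicate 1 and 1592 in replicate 3. Lk6, a kinase of the cap-binding factor eIF4E, had 2838 at 961 bp upstream of an internal TSS, within its own intron, with 1546 in replicate 1 and 1283 in replicate 3. All 4 of these regions were among the 14 strongest peaks of both replicates' lists.

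Of the 20 strongest regions 18 had an upstream summit, at a median of 184.5 bp upstream. Transcription factor genes among them were shn (2597, 175 bp upstream), a zinc-finger factor of Dpp signalling, and Atf3 (2180, 213 bp upstream), a bZIP factor. HmgZ (2221, 549 bp upstream) encodes an HMG-box protein. Others were amon (2479, 219 bp upstream), a prohormone convertase, px (2389, 204 bp upstream), which acts in wing vein patterning, larp (2141, 325 bp upstream), an RNA-binding protein, and Fkbp14 (2194), a prolyl isomerase. The junctophilin gene jp had 2610 at 759 bp upstream. CG31871 (2427), CG31145 (2294), CG18549 (2278), CG1635 (2139), Tina-1 (2063) and CG1888 (2052) had summits from 113 to 496 bp upstream. The remaining 2 were downstream: CG9663 (2481, 938 bp into the gene, in an intron) and Mnn1 (2016, 4 bp downstream), which encodes the fly menin.

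The strongest regions over 500 bp from the TSS were those of Lk6, jp and HmgZ upstream and CG9663, Adf1 (1560, 850 bp) and CG9135 (1202, 586 bp) downstream. Adf1 encodes a MADF-domain transcription factor, and its summit was intronic. Over all regions the median signal was 307.0, with 80% between 201.4 and 770.3. The median was 317.3 at regions near several genes and 277.5 away from promoters, and in each replicate's list the order was the same: 176.4, 182.9 and 164.7 in replicate 1 and 138.2, 141.9 and 120.5 in replicate 3. The 3 classes overlapped over nearly their whole range. Signal was almost unrelated to gene length (Spearman rho 0.07 over 2158 regions) and weakly related to the region's width (rho 0.30). These are descriptions over regions of 1 list, of which 213 were merged from more than 1 peak.

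The replicates agreed on most of the regions. Both had a peak among their own 5744 strongest at 1720 regions, or 79.7% (78.0 to 81.3%), against 82.3% (80.1 to 84.4%) near several genes and 72.9% (70.8 to 74.9%) away from promoters. Their signals had a Spearman rho of 0.76 over the 2129 regions listed in both, and these regions come from a list made from both replicates. The summits of the replicates were a median of 28 bp apart, 71.4% were within 50 bp, and in 1911 regions, or 89.8%, they lay on the same side of the TSS. By strength, 213 of the 215 strongest regions and 22 of the 215 weakest were among the strongest peaks of both replicates. The reproducible list ends at the same rank of 5744 in the pooled list, so its weakest regions lie near that rank by construction and this fall is no measure of their reliability.

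In all, 12 regions had no peak among the 30000 of replicate 1 and 17 had none among those of replicate 3. The forkhead gene fkh, a regulator of gut and salivary gland, had a signal of 1458 (chr3R:28585199-28585675, 238 bp upstream) and ranked 79 in replicate 1 but was not listed in replicate 3. The gene sp3 (1272) and Synd (394.1), a membrane-bending protein gene, were likewise not listed in replicate 3. In replicate 1 the unlisted regions of highest signal were those of the nuclear receptor gene ftz-f1 (738.3), Pal2 (513.3) and Naus (426.6). These signals are those of the reproducible list, which was made from both replicates, while only 1 replicate's own list held each region. In the replicate 1 list fkh had 949.1, sp3 801.5 and Synd 239.8. In the replicate 3 list ftz-f1 had 332.3, Pal2 202.1 and Naus 199.2. Why the other list lacks them was not tested.

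**Figure D2:**
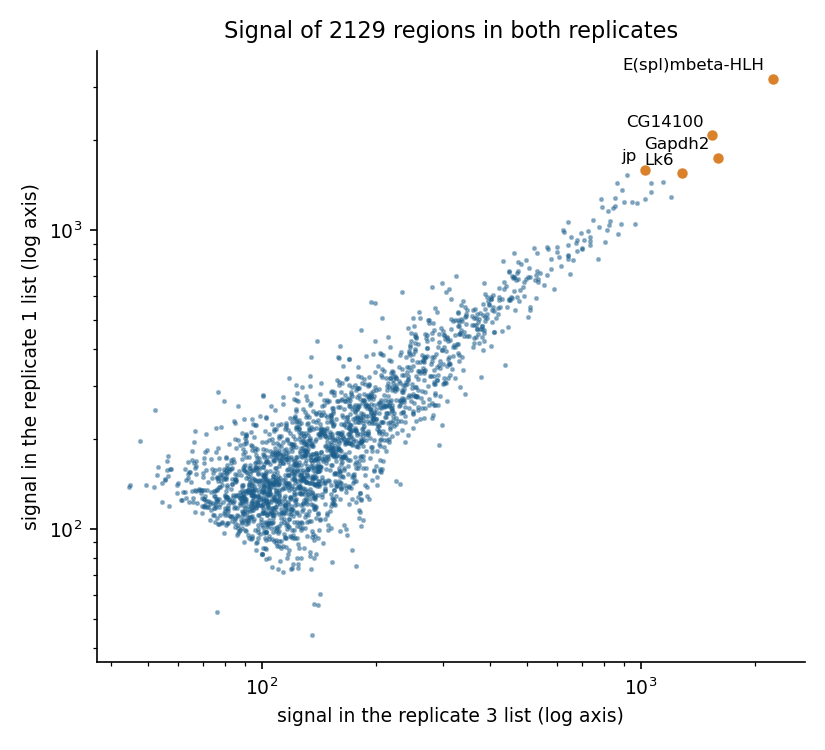
Signal of the 2129 regions with a peak in both lists, replicate 3 across and replicate 1 up, on log axes, 1 point a region. The points widen toward low signal, and the named regions E(spl)mbeta-HLH, CG14100, Gapdh2, Lk6 and jp sit at the top of both lists.

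The regions belonged to 1752 genes, 12.6% of the 13945 protein-coding genes on the 6 arms. A gene crowded by others can hardly have a region of its own under the rule, so shares are also given over the 6241 genes with no close neighbour, meaning at least 1 TSS with no other gene's TSS within 2 kb. Of these 1359, or 21.8%, had a region. The arms were alike: 20.5% of such genes on 3R, 21.2% on 2L, 21.7% on 3L, 22.5% on X and 23.5% on 2R had a region. Arm 4, with 51 such genes, had 15.7%.

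Genes with a region of their own were long. Their median length was 6326.5 bp, against 2560 bp for genes at regions near several genes, 3125 bp for genes with no close neighbour and 2166 bp for all protein-coding genes. Among genes with no close neighbour the median was 7970 bp with a region and 2458 bp without. The share of these genes with a region was 8.15% (7.07 to 9.37%) at up to 2 kb, 19.1% (17.3 to 21.1%) from 2 to 5 kb, 31.6% (28.5 to 34.8%) from 5 to 10 kb and 37.7% (34.2 to 41.3%) from 10 to 20 kb. It stayed near that level in longer genes, at 39.3% from 20 to 50 kb and 38.7% above 50 kb.

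Long genes have more TSSs, and each TSS adds a window in which a summit counts. With 1 TSS 494 of 4117 genes with no close neighbour had a region. With 2 TSSs the share was 32.1%, with 3 TSSs 44.5% and with 4 or more 64.3%. Among genes with 1 TSS the share was 7.04% (5.99 to 8.25%) at up to 2 kb, 13.6% (11.8 to 15.7%) from 2 to 5 kb, 18.0% (14.5 to 22.2%) from 5 to 10 kb and 24.5% (19.8 to 30.0%) from 10 to 20 kb. It was 22.0% (16.7 to 28.5%) from 20 to 50 kb and 14.8% (8.68 to 24.1%) above 50 kb, where 12 of 81 genes had a region.

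**Figure D3:**
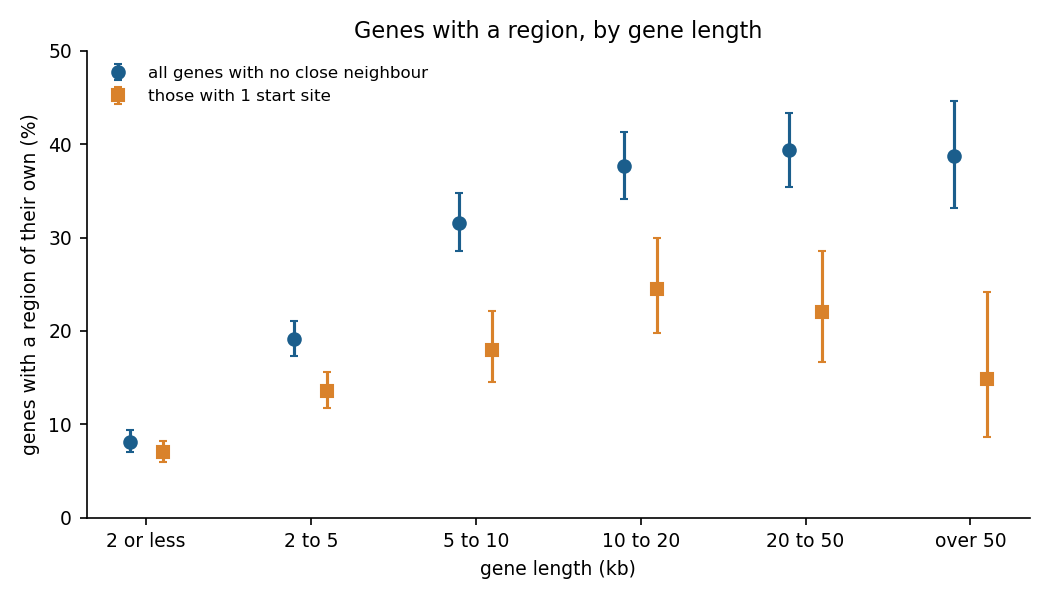
Share of genes with no close neighbour that had a region of their own, by gene length in kb, for all of them (circles) and for those with 1 TSS (squares). Bars are 95% Wilson intervals. The share is 8.15% at up to 2 kb and 37.7% from 10 to 20 kb among all of them, and 7.04% and 24.5% among those with 1 TSS.

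The longest genes with a region were kirre (394149 bp, signal 284.2), an adhesion protein of muscle founder cells, the teneurin gene Ten-a (291517 bp, 531.7) and pum (171340 bp, 365.7), a translational repressor. All 3 regions lay at TSSs other than the most upstream one. The shortest were CG43072 (387 bp, 364.1), CG34200 (406 bp, 279.4) and CG42815 (408 bp, 800.3). Regions of the shortest genes, 540 regions at genes of up to 3049 bp, were upstream of the TSS in 71.3%. The share was 57.0% and 62.7% in the next 2 groups of 539 regions by gene length and 60.6% in the 540 regions at the longest genes, so it did not fall steadily with length. The median signals in the same order were 288.5, 305.1, 327.3 and 312.7.

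Many regions lay nearest a TSS other than the most upstream one of their gene. At genes with several TSSs, 1381 regions in all, 488 or 35.3% had the most upstream TSS as the nearest. The genes with a region had a mean of 2.16 TSSs, and 57.1% had several. Which share of those TSSs is the most upstream one was not computed, so 35.3% is no measure of a preference for internal promoters. By place, 725 summits lay in an intron of their gene, 686 outside any gene, 621 in a 5′ untranslated exon, 104 within another gene, 20 in a coding exon and 2 in a 3′ untranslated exon. Upstream summits in introns, which lie before an internal TSS, numbered 477 and had a median signal of 338.7, against 323.3 for the 679 upstream summits outside any gene. The 520 downstream summits in 5′ untranslated exons had a median of 285.9.

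Most genes had 1 region, 1449 of 1752, and 303 had several, at different TSSs in 235 of them. The gene with the most was cnc, a bZIP factor with many promoters, with 7 regions of signal 259.9 to 441.8 spread over a gene of 41132 bp. Rtnl1, a reticulon of the endoplasmic reticulum, had 6 regions, all upstream of their nearest TSS, with signals of 1302, 1098, 509.1, 343.4, 199.7 and 198.6. The regions of 1302 and 1098 lay 244 and 250 bp upstream of internal TSSs. The gene ps, of an RNA-binding splicing regulator, also had 6, with signals from 260.7 to 613.9. Regions of 1 gene share their locus and are not independent of each other.

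Gene function was described over 35 lists. The list of genes named by a CG number alone held 500 of the 1752 genes. The other lists together held 200, or 11.4%. In each list the first count is over all its genes and is read against 12.6%. The share over its genes with no close neighbour is read against 21.8%. Signals are the strongest region of each gene.

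Among genes of protein synthesis, those of cytosolic ribosomal proteins had regions at 24 of 88, with a median signal of 761.8, and at 15 of 22 with no close neighbour, 68.2% (47.3 to 83.6%). Altogether 73 of the 88 had a promoter region when regions near several genes were counted too, and the share with a region of their own was 48.9% with a 500 bp window and 14.8% with a 2 kb window. RpL11 had a signal of 1787 at 21 bp upstream (1020 in replicate 1, 772.0 in replicate 3), RpS4 1715 at 5 bp downstream (990.9 and 725.7) and RpL30 1469 at 16 bp upstream (825.1 and 642.8). These summits sat on the TSS, where the median signal of all regions was below 300. Translation factors had regions at 7 of 51, led by eEF1gamma (1701), eEF2 (794.1) and eEF1alpha1 (617.7), all within 20 bp of a TSS, and at 3 of 15 with no close neighbour.

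Mitochondrial ribosomal proteins had a region at 2 of 75 genes, mRpL10 (318.2) and mRpL9 (266.3), and at 2 of 7 with no close neighbour. Counting regions near several genes too, 32 of the 75 had a promoter region. Aminoacyl-tRNA synthetases had a region of their own at 0 of 32 genes, which allows a share of up to 9.38% if 3 counts are taken as the limit of a count of 0 and up to 10.7% by the Wilson interval, and at 0 of 6 with no close neighbour (up to 39.0% by the Wilson interval). With regions near several genes 9 of the 32 had one. Splicing and mRNA-binding proteins had regions at 8 of 28 genes and at 7 of 12 with no close neighbour, led by the neuronal RNA-binding protein gene elav (1934, 264 bp upstream), mbl (838.6) and ps (613.9). Subunits of Mediator and TBP-associated factors had regions at 2 of 40, Taf4 (727.5) and MED4 (419.0), and at 0 of 6 with no close neighbour.

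Glycolysis was covered most fully among the 35 lists. Regions lay at 8 of 13 glycolytic genes and at 7 of 7 with no close neighbour (64.6 to 100%), with a median signal of 670.4. Gapdh2 (3326), the hexokinase gene Hex-A (1795, 166 bp upstream) and Ldh (947.2, 154 bp upstream) led them, and all 3 had signals above the median of the regions in both replicate lists. Hex-A had 996.4 in replicate 1 and 810.8 in replicate 3, and Ldh 533.6 and 408.6. Other metabolic and protein quality lists lay near the background. The respiratory chain had regions at 10 of 87 genes (5 of 24 with no close neighbour), led by COX7AL2 (603.3), ATPsynC (597.6) and ND-B22 (411.9). The vacuolar proton pump had 4 of 33 (2 of 13), namely Vha16-1 (470.2), VhaSFD (257.8), Vha68-2 (229.9) and VhaM9.7-c (196.5). The proteasome had 3 of 48 (2 of 14), namely Rpn12 (279.7), Rpn8 (219.0) and Rpn10 (184.3), and chaperones had 6 of 40 (5 of 15), led by Hsp27 (896.7), Hsp26 (469.1) and Hsp110 (352.5).

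The list of the Hairy/E(spl) repressors, the family of the tagged protein, also holds gro, which is not of that family. Regions of their own lay at 5 of its 13 genes and at 5 of 11 with no close neighbour, 45.5% (21.3 to 72.0%). After E(spl)mbeta-HLH came gro, which encodes the corepressor, with 760.5 at 135 bp upstream of an internal TSS (508.7 in replicate 1, 260.5 in replicate 3). Sidpn had 545.5 at 817 bp upstream, hry, the pair-rule gene hairy, 519.8 at 53 bp upstream, and cwo, a clock repressor, 319.1 at 67 bp downstream. The other 8 genes of the list, most of them in the E(spl) complex, had no region near that gene alone. Regions near several genes lay at 0 of the 13, so these 8 had no promoter region of either kind. In the Notch pathway 5 of 25 genes had one, and 5 of 13 with no close neighbour, 38.5% (17.7 to 64.5%). They were numb (694.8), an inhibitor of Notch, neur (625.0), a ubiquitin ligase for its ligands, mam (504.9), the nuclear coactivator, Nedd4 (360.0), a ubiquitin ligase, and the polarity gene sdt (314.7).

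The other signalling lists stood in the same range. Among genes with no close neighbour, regions lay at 6 of 11 in the JAK/STAT and JNK pathways, 7 of 14 in the Dpp pathway, 4 of 9 in the Hippo pathway, 7 of 16 in the EGFR pathway, 7 of 18 in the Wnt pathway and 7 of 19 of the ecdysone response. Over all genes the counts in that order were 8 of 22, 8 of 25, 5 of 18, 7 of 24, 7 of 24 and 7 of 25. In the EGFR pathway the 3 of highest signal were the ligand gene spi (944.9), the inhibitor gene sty (727.0) and the kinase gene Raf (721.1). The Wnt pathway was led by the kinase gene sgg (1011), the co-receptor gene arr (583.4) and the antagonist gene nkd (440.7).

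In the Dpp pathway shn (2597) was followed by the repressor gene brk (539.0) and the receptor gene wit (471.8). In the Hippo pathway the upstream regulators Mer (564.4), ex (497.8) and kibra (261.1) led, followed by sd (227.1) and dco (183.9), and in the JAK/STAT and JNK pathways the transcription factor gene Stat92E (697.1), the kinase gene msn (513.6) and the phosphatase gene puc (444.3). The ecdysone response was led by the nuclear receptor genes Eip75B (1015), ftz-f1 (738.3) and Hr51 (705.0). All 7 of its 7 genes with a region had their strongest summit upstream of the TSS, against 64.3% of all 1752 genes. Such counts varied between these small lists, with 4 of 4 for muscle structure and 2 of 8 for the JAK/STAT and JNK pathways.

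Transcription factors differed by family. Zinc-finger, GATA, Sox and forkhead factors had regions at 13 of 47 genes and at 12 of 44 with no close neighbour, 27.3% (16.3 to 41.8%), led by shn, Sox14 (1706, 258 bp upstream) and fkh. Homeodomain factors had 1 of 65, and 1 of 60 with no close neighbour, 1.67% (0.295 to 8.86%). That gene was cad, a regulator of the embryo's posterior, with 285.9 at 113 bp upstream (188.5 in replicate 1, 94.3 in replicate 3). Both intervals cover counting error only, within lists chosen with earlier results of these data known. The median gene length was 12405 bp over the homeodomain list and 6843 bp over the other. Whether length or number of TSSs goes with the difference in share was not tested. Chromatin regulators had regions at 10 of 43 and at 8 of 12 with no close neighbour, 66.7% (39.1 to 86.2%), led by the neighbouring Polycomb group genes ph-p (1921) and ph-d (1206), which are near-identical copies, and the insulator gene mod(mdg4) (580.8). How the authors treated reads that fit both ph genes is not given in the sources used here.

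Among cell structure and tissue lists, septate junction, cadherin and adhesion genes had regions at 12 of 31 and at 9 of 15 with no close neighbour (35.7 to 80.2%). Their signals were moderate, from 192.8 to 487.0, with sqh, cora and rhea (487.0, 483.2 and 465.7) at the top. Glial genes had 6 of 14 (5 of 12), led by moody (1417), a receptor of the blood-brain barrier, Gs2 (676.0) and loco (529.5). Pan-neuronal and synaptic genes had 7 of 27 (5 of 17), led by elav, Nrx-1 (846.8) and Nlg2 (436.6), and muscle structure had 4 of 20 (4 of 19), namely Msp300 (1148), sls (330.6), Tm1 (220.9) and TpnC47D (213.4). Rab GTPases had 6 of 33 (4 of 9), led by Rab5 (580.9), Rab32 (448.1) and Rab1 (294.8). Tubulins and actins had 3 of 17 (3 of 13), namely Act5C (497.7), betaTub56D (252.9) and betaTub97EF (247.4). Cell cycle and replication had 4 of 36 (4 of 14), namely Orc1 (317.8), E2f1 (280.1), Cdk4 (278.1) and fzr (206.7).

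Among genes used late or in adult organs, chemosensory receptors had 1 of 180, and 1 of 101 with no close neighbour, 0.990% (0.175 to 5.40%), and that gene was Orco (310.3), the co-receptor shared by odorant receptors. Cuticle proteins had 1 of 97, and 1 of 42 (0.422 to 12.3%), Cpr67Fb (245.6). Trypsins and Jonah proteases had 1 of 31 (0 of 6), zetaTry (193.9), and the genes of chorion, vitelline membrane and yolk had 0 of 18 (0 of 6). That 0 allows a share of up to 16.7% by the limit of 3 counts, 17.6% by the Wilson interval and 39.0% for the 6 genes, all of which hold the background. Cytochrome P450 genes had 9 of 85, and 6 of 58, 10.3% (4.83 to 20.8%), led by Cyp305a1 (425.1), Cyp317a1 (353.4) and Cyp301a1 (323.0). Genes still named by a CG number alone had 500 of 6097, and 380 of 2725, 13.9% (12.7 to 15.3%), below 21.8%, although CG14100, CG9663 and CG31871 were among the 9 strongest. Which of the list shares go with gene length or number of TSSs was not tested.

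**Figure D4:**
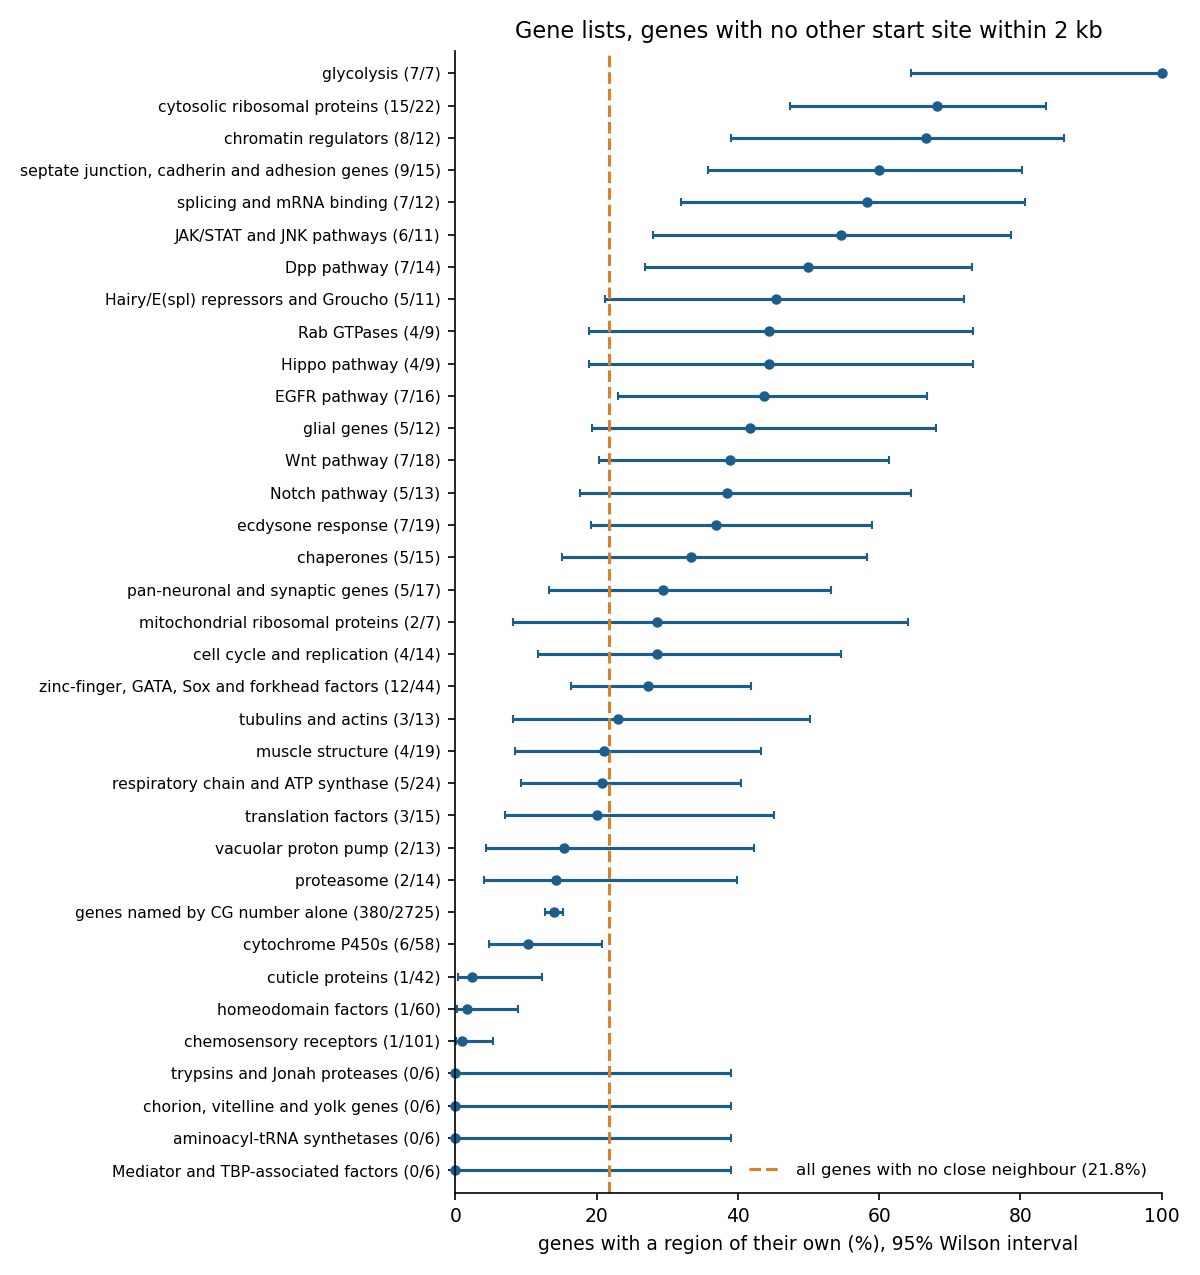
Share of genes with no close neighbour that had a region of their own, for the 35 gene lists, with 95% Wilson intervals. Counts stand beside the names, and the dashed line marks 21.8%. Glycolysis (7 of 7) and cytosolic ribosomal proteins (15 of 22) stand at the top, and chemosensory receptors (1 of 101) and homeodomain factors (1 of 60) lie near 0.

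Promoter words differed in frequency between these regions and those near several genes. Within 100 bp of the summit, on either strand, TATCGATA occurred in 88 regions, 4.08% (3.32 to 5.00%), against 9.49% (7.96 to 11.3%) near several genes, 0.218% away from promoters and 6.43% of windows of the same length around all TSSs. GGTCACACT occurred in 2.50% (1.92 to 3.25%), against 4.37% (3.36 to 5.68%), 0.0545% and 4.43%. GAGAGAG went the other way, with 8.48% (7.38 to 9.73%), against 3.38% (2.50 to 4.56%), 5.07% and 4.67%. Around TSSs with no other gene within 2 kb the shares were 3.85% for TATCGATA, 2.71% for GGTCACACT and 6.58% for GAGAGAG, nearer to those of the regions. Windows of the comparison follow the TSS, whereas those of the regions follow the summit. With windows of 50 and 250 bp on each side, TATCGATA was in 2.09% and 6.30% of the regions.

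The words of the tagged protein's own family differed less between these regions and those near several genes. CACGCG occurred in 9.08% (7.94 to 10.4%), against 7.67% (6.30 to 9.31%) near several genes, 7.41% away from promoters and 6.39% around all TSSs. CACGTG occurred in 3.75% (3.03 to 4.64%), against 4.21%, 4.19% and 2.79%. The N-box CACNAG, short and loosely defined, occurred in 24.3% (22.6 to 26.2%), against 24.8%, 19.3% and 23.7%. Around TSSs with no other gene within 2 kb the shares were 7.41% for CACGCG, 2.32% for CACGTG and 23.7% for CACNAG. Set against those TSSs, CACGTG and CACGCG were the more frequent over all regions, and TATCGATA and GGTCACACT differed little. The region windows follow the summit, however, and the comparison windows follow the TSS. Where the summit lay in the 100 bp upstream of the TSS, TATCGATA was in 9.64%, GGTCACACT in 6.29%, CACGCG in 10.3% and CACGTG in 4.19%. In the 100 bp downstream these were 6.44%, 4.30%, 14.1% and 4.53%, and each was above its share at those TSSs. In the strongest 540 regions CACGCG was in 8.70%, CACGTG in 3.89% and CACNAG in 22.4%, against 9.44%, 3.89% and 25.4% of the weakest 540. No match says only that these letters are not in the window.

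Gene length went with the words. Among the 540 regions at the longest genes, 1.85% held TATCGATA, 12.4% held GAGAGAG and 10.9% held CACGCG, against 6.67%, 3.89% and 6.67% of the 540 regions at the shortest genes. Regions with TATCGATA had a median gene length of 3560.5 bp and a median signal of 273.7, and those with GAGAGAG 13527 bp and 308.7.

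The words differed in how they were placed from the TSS, counted over the 2056 distinct TSSs of the regions in bins of 50 bp. TATCGATA was found in 53 and 58 TSSs in the bins that reach 100 and 50 bp upstream, in 26 in the first 50 bp downstream and in 2 in the next bin. GGTCACACT peaked in the first 50 bp downstream (51 TSSs), with 33 in the 50 bp upstream and 0 in the bin beyond. GAGAGAG was highest between 50 and 150 bp upstream, in 114 TSSs (5.54%) from 150 to 100 bp and in 147 (7.15%) from 100 to 50 bp. CACGCG was highest in the first 50 bp downstream, with 86 TSSs or 4.18%, against 39 in the 50 bp upstream, and it stayed above its upstream counts out to 300 bp downstream. CACGTG was rarer, with 25 and 12 in those bins, 21 from 100 to 150 bp and 22 from 350 to 400 bp downstream. Its bins held 10 to 15 TSSs upstream and 10 to 25 downstream. The N-box was spread over all bins, in 91 to 181 TSSs each. In regions whose summit lay 100 to 300 bp upstream, where signal was highest, 5.15% held CACGCG and 9.50% GAGAGAG within 100 bp of the summit. In the 100 bp downstream of the TSS these were 14.1% and 6.68%.

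**Figure D5:**
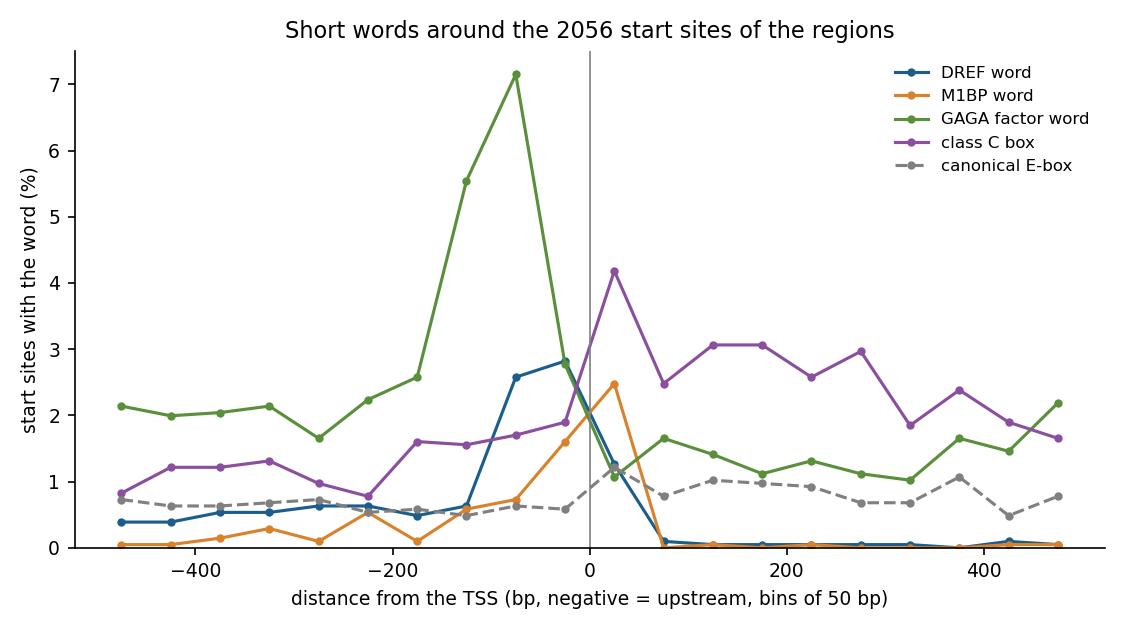
Share of the 2056 TSSs with each word, on either strand, in bins of 50 bp from the TSS. The GAGA factor word is highest 50 to 150 bp upstream (7.15% in its top bin), the DREF word just upstream, the M1BP word at the TSS and the class C box in the first 50 bp downstream (4.18%).

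Core promoter words were read at their usual places from the TSS. The initiator core TCAGT lay within 5 bp of 281 of the 2056 TSSs, 13.7%, against 11.1% of TSSs with no other gene within 2 kb and 8.20% of all TSSs. The TATA word TATAAA, 40 to 15 bp upstream, was at 3.65%, against 6.38% and 6.80%. The downstream promoter element word AGACGTG, 15 to 45 bp downstream, was at 0.584%, against 0.411% and 0.291%. In the windows of 100 bp on each side, which follow the summit in the regions and the TSS in the comparison, the initiator word was less frequent, at 37.9% of the regions against 47.1% and 43.3%.

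The 1 kb limit and the limit of 1 gene cut through a continuous spread. Just inside, 66 regions with a summit 900 to 1000 bp from their TSS had a median signal of 283.0, and just outside, 73 regions at 1000 to 1100 bp had 307.4. The nearest inside were CG9498 (999 bp upstream, 651.9) and drongo (996 bp downstream, 348.2). The nearest outside were mAChR-A (1001 bp downstream, 326.2) and lectin-46Cb (1005 bp upstream, 340.1). For 69 regions a second gene's TSS lay 1000 to 1100 bp from the summit, with a median signal of 294.9, and 59 regions near 2 genes had their farther TSS at 900 to 1000 bp, with a median of 281.5. Noncoding genes were not counted by the rule, and 213 regions also had the TSS of one within 1 kb.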

How the data were processed

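ChIP-seq peak lists of 2 biological replicates were analysed. Per the file descriptions, the authors deposited 4 narrowPeak lists on dm6: 1 per replicate and 1 pooled, each of 30000 peaks, and a reproducible list of 5744. The deposited signal is the authors' value per peak, with no common scale between lists. The deposited −log10 q-value was capped at 4.09 throughout the reproducible list and was not used for ranking. The deposited summit offset placed the summits. The sources used here name no aligner, peak caller or reproducibility threshold.

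Genes came from Ensembl release 115 (BDGP6) and sequence from RefSeq's copy of the same assembly, in which 0 peaks lay beyond an arm's end. Regions kept the summit and signal of their strongest peak on the 6 main arms, and distances run to the nearest TSS of the gene. A replicate's value is its strongest peak overlapping the region. The lists were not matched to depth, which is unknown. With 1 group of 2 samples no test between conditions exists, and no p-value is given. Members and gene lists were chosen with earlier results of these data known. Genes named are the 20 strongest, the 3 strongest per list, the extremes of position, length, number of regions and replicate disagreement, those at the 1 kb limit, and, for the sequences, the 2 strongest off arm 2R with a printed word upstream. Lists of up to 5 genes with a region are named in full, some after their values were seen. Merging, assignment, word search and intervals were tested on simulated data (7 of 7 checks recovered). Python 3.11.15, pandas 2.3.3, numpy 2.4.6, scipy 1.17.1 and matplotlib 3.10.9 were used.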

Additional observations from a re-analysis of the deposited data

How the results depend on the processing

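All 8 results were recomputed under the alternatives, 59 values in all, of which 27 moved by less than the spread between the single-replicate lists (or stayed within the interval or within 1.5 times for a count), 32 moved by more and 0 changed sign. Only the median signed distance could change sign, because the other results are counts, shares, signals or lengths and are never negative. With the stronger 2872 peaks there were 1148 regions, 68.03% upstream, a median of -94.5 bp, median signal 443.0, gene length 7514 bp, 98.3% seen in both replicates, 23.9% of ribosomal protein genes and 3.22% with TATCGATA. A 500 bp window gave a median of -36 bp, 5745 bp, 48.9% of ribosomal protein genes and 5.17% with TATCGATA, and a 2 kb window gave 60.8% upstream, 7690 bp, 14.8% and 2.75%. With 1 TSS per gene 52.5% were upstream at a median of -8 bp, with 4683 bp, 28.4% and 5.65%. At genes with 1 TSS, an alternative chosen after seeing the data, the median was -39 bp. Word windows of 50 and 250 bp gave 2.09% and 6.30%. From 1 replicate's list alone the ranges were 61.6 to 62.7% upstream, -49.5 to -39 bp, signal 137.5 to 178.0 on those lists' own scales, 6321.5 to 6521 bp, 28.4 to 29.5% and 3.58 to 4.21%. The share seen in both replicates has no such value. No paired analysis was possible because there is 1 group. Depth is unknown and could not be weighed.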
